A study of Homo sapiens with 12 samples.

Results

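The genes described here are NFE2L2, which encodes the transcription factor NRF2, 7 genes known as its targets (HMOX1, NQO1, GCLC, GCLM, TXNRD1, OSGIN1 and SRXN1), and FTL and FTH1, which encode the light and heavy chains of ferritin. They were chosen by gene name, with earlier results of these data known, and are 10 of the 35741 genes in the count table. The RNA came from U87, an established human glioblastoma cell line, with 3 libraries in each of 4 groups. Control cells were untreated and are labelled WT. PNA-10b cells received sgPNA-10b at 150 nM, PNA-21 cells received sgPNA-21 at 150 nM, and PNA-10b+21 cells received both at 150 nM each, all for 72 h and in nanoparticles labelled BNP. No time was recorded for the control cells, so their time in culture may differ from that of the treated cells. Peptide nucleic acids carry bases on a backbone of amide units instead of sugar and phosphate, and these were made against the seeds of miR-10b and miR-21, so the labels call the 3 treated groups knockdowns of miR-10b, of miR-21 and of both. The labels describe no group with empty nanoparticles or a control strand, so the nanoparticle and its cargo cannot be told apart in a comparison with control. The combined group received more sgPNA in total than either single group. An added agent and a higher total dose therefore cannot be told apart when it is compared with them, or in the interaction. They do not say that the 3 libraries of a group came from separate cultures, so the p-values set a difference beside a spread that may be technical. All cells shared 1 cell line and 1 medium.

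NRF2 is held at a low level in resting cells by KEAP1, an adaptor that hands it to a ubiquitin ligase, and its control is therefore largely at the protein. When oxidants or electrophiles modify KEAP1, NRF2 accumulates, pairs with a small MAF protein and binds antioxidant response elements in the promoters and enhancers of genes for glutathione synthesis, thioredoxin recycling, quinone reduction and heme breakdown. Both ferritin chains are also known NRF2 targets, but ferritin protein is set above all by iron, through regulatory proteins that bind the messenger RNA, and the shell of 2 chain types stores iron in a safe form. Glioblastoma cells are known for a high demand on iron and on glutathione.

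The sequences shown here are the seed that sgPNA-21 was made against and the matching site found among the 10 genes. Stretches of promoter that match the core of the antioxidant response element are also shown. The mature miR-21-5p, from RefSeq (GRCh38.p14, chr17:59841273-59841294, plus strand), is shown with its seed, bases 2 to 8, in capitals.
miR-21-5p: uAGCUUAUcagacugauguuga
The longest annotated 3′ UTR of each gene (GENCODE release 29, GRCh38) was searched on the transcript strand for ATAAGCT, the match to the seed of miR-21-5p, and for ACAGGGT, the match to that of miR-10b-5p. GCLM held the only match among the 10 genes, to miR-21-5p, at chr1:93887865-93887871 on the minus strand, and the match is in capitals.
GCLM site: attgcaaataaATAAGCTatgaactttga
Of 12262 tested genes with such a UTR, 10.9% held the miR-21-5p match and 15.9% the miR-10b-5p match. The RefSeq promoter table (250 bases before to 50 after the start) held 8 of the 10 genes. Its windows of 300 bases were searched on both strands for TGACNNNGC, the core of the antioxidant response element, where N is any base. The core lay in 13.3% of 35116 windows and in 3 of the 10 windows of these 8 genes, which belong to 2 of the 8, GCLM and TXNRD1, and no match there overlapped the AP-1 motif TGACTCA. The lines below give the GCLM stretch (chr1:93909431-93909494, minus strand) and the stretch before the second listed start of TXNRD1 (chr12:104286900-104286968, plus strand), 5′ to 3′ on the gene's strand, with the core in capitals as its reverse complement.
GCLM promoter: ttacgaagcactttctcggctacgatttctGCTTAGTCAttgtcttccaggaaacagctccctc
TXNRD1 promoter: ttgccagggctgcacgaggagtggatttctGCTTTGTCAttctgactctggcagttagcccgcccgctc
These cores began 34 bases before the start of GCLM and 102 before that of TXNRD1, whose first listed start had further matches 99 and 8 bases before it. A match is a description of these letters only, and elements outside these windows were not searched for. Gene coordinates below are of GRCh38 from GENCODE release 29.

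Total counts per library ran from 12846676 to 18305820. The filter on low counts left 15715 genes to test, among them 9 of the 10 described here; SRXN1 was too low. In GENCODE release 29, exons of another gene on the same strand cover 17.6% of the exon bases of NFE2L2, 13.9% of OSGIN1 and 6.12% of GCLC, and an antisense gene covers 17.7% of those of NQO1, so counts there are less certain. The markers listed for a mesenchymal glioblastoma line were all present, among them FN1, TNC, VIM and CD44. Their summed level, in CPM (counts scaled by library size with TMM factors), was 22359 to 26989 for control libraries, 19121 to 21702 for PNA-10b, 17430 to 18836 for PNA-21 and 17983 to 19875 for the combined group. Markers of other neural cells summed to 7.79 to 9.52 CPM in the 12 libraries, with 4 of 7 under 1 CPM in every library. Markers of other human cells summed to 8.31 to 10.6 CPM in control, 5.36 to 6.67 in PNA-10b and 7.11 to 8.36 in the groups with sgPNA-21, with 5 of 9 under 1 CPM throughout. The part of these marker levels in the results was not tested.

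The first question is what each sgPNA, alone or with the other, changed against untreated cells. With sgPNA-21, alone or combined, HMOX1, OSGIN1, TXNRD1 and FTL rose, by 1.16 to 1.51-fold. GCLM passed the test after sgPNA-21 alone and FTH1 after both, and neither gene differed past the threshold between these groups. With sgPNA-10b alone 0 of the 9 tested genes passed as higher, though 1 or 2 did in some alternatives (HMOX1, TXNRD1 or FTH1), and NQO1 fell by 15.9%, a call lost in 5 of 19 alternatives. The messages of NRF2 itself and of GCLC, the catalytic subunit of glutathione synthesis, passed the test in no comparison. Changes were tested with edgeR's quasi-likelihood test, and the threshold was a p of 0.05 after Benjamini-Hochberg adjustment over the 15715 genes. In these bulk samples, fewer cells with a message and less message per cell cannot be told apart.

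**Figure D1:**
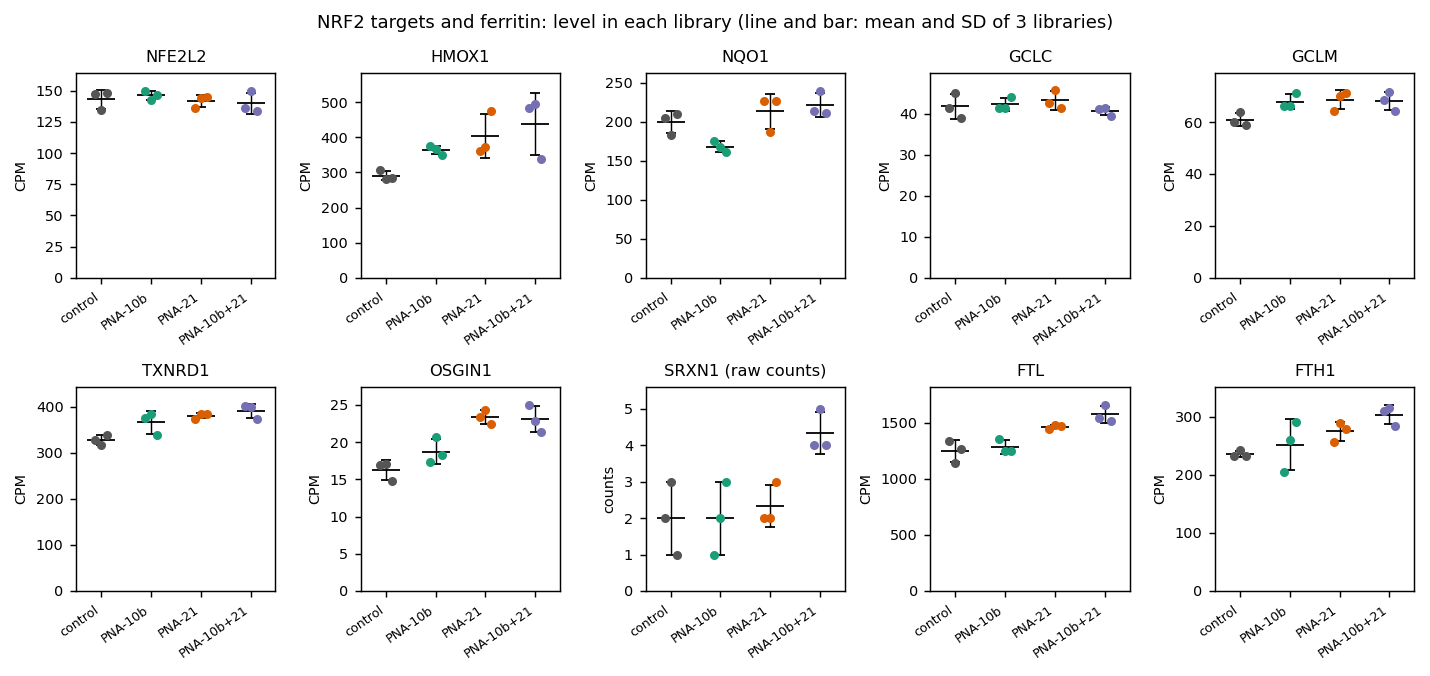
Level of each of the 10 genes in the 12 libraries, in CPM (SRXN1 in raw counts), by group, with each axis starting at 0. Points are libraries, and the line and bar are the mean and SD of 3 libraries. HMOX1, OSGIN1, TXNRD1, FTL, GCLM and FTH1 lie above all control libraries in both groups given sgPNA-21. In PNA-10b, HMOX1, GCLM and OSGIN1 also lie above them and NQO1 lies below.

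NFE2L2 (chr2:177227595-177392697, minus strand), the transcription factor, was measured at 147, 134 and 148 CPM in the control libraries. Its level was 150, 142 and 147 CPM in PNA-10b, 137, 144 and 145 CPM in PNA-21, and 136, 150 and 134 CPM in PNA-10b+21. All 4 groups overlapped. The log2 fold changes against control were 0.03 ± 0.05 (SE), -0.01 ± 0.05 and -0.03 ± 0.05 for PNA-10b, PNA-21 and PNA-10b+21, with adjusted p-values of 0.821, 0.892 and 0.699. The 95% intervals ran from -0.15 to 0.14 over the 3 comparisons, and the sign for both groups with sgPNA-21 turned when libraries were scaled by total counts alone (0.04 and 0.01). KEAP1, its inhibitor, differed from control by -0.03, -0.07 and -0.01 on the log2 scale and passed in no comparison; it is named after its values were seen.

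HMOX1 (chr22:35380361-35394214, plus strand), which opens the heme ring and releases iron, carbon monoxide and biliverdin, had the largest log2 change of the 9 tested genes after both agents. The control libraries held 306, 282 and 285 CPM, and those of PNA-10b 376, 366 and 351 CPM. PNA-21 libraries held 361, 372 and 475 CPM, and those of PNA-10b+21 held 485, 495 and 337 CPM. Every treated library lay above every control library, and within both groups given sgPNA-21 a single library stood away from the other two, high in PNA-21 replicate 3 and low in PNA-10b+21 replicate 3. HMOX1 rose by 0.47 ± 0.11 (SE) on the log2 scale in PNA-21 (adjusted p = 0.00239) and by 0.59 ± 0.11 in PNA-10b+21 (adjusted p = 0.000312). For PNA-10b the value was 0.32 ± 0.11 with an adjusted p of 0.0787, which does not pass. That call turned with the fit: the adjusted p was 0.00167 when only the libraries of control and PNA-10b were fitted, 0.0128 without PNA-10b+21 replicate 3, 0.0465 without PNA-21 replicate 3, and 0.210 with DESeq2.

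NQO1 (chr16:69706996-69726951, minus strand), a quinone reductase and a common readout of NRF2 activity, was the 1 gene of the set lower than control after sgPNA-10b. It was measured at 205, 183 and 210 CPM in control and at 175, 167 and 160 CPM in PNA-10b, where all 3 libraries lay below control. It was measured at 226, 186 and 226 CPM in PNA-21 and at 213, 239 and 211 CPM in PNA-10b+21. NQO1 fell by 0.25 ± 0.07 (SE) on the log2 scale in PNA-10b (adjusted p = 0.0374). It did not pass against control in PNA-21 (0.10 ± 0.07, adjusted p = 0.319) or in PNA-10b+21 (0.15 ± 0.07, adjusted p = 0.121), though in the latter every library was above control. The fall in PNA-10b missed the threshold when libraries were scaled by total counts alone (-0.22, adjusted p = 0.0586), and without control replicate 1 (adjusted p = 0.142), control replicate 3 (0.169), PNA-10b replicate 2 (0.141) or PNA-10b replicate 3 (0.119), with the value still negative.

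The enzyme that makes the first step of glutathione synthesis has a catalytic subunit, GCLC (chr6:53497341-53616970, minus strand), and a modifier subunit, GCLM (chr1:93885205-93909456, minus strand). GCLC was measured at 41.5, 45.0 and 39.0 CPM in control, and its means in PNA-10b, PNA-21 and PNA-10b+21 were 42.3 ± 1.51 (SD, n = 3), 43.3 ± 2.30 and 40.6 ± 1.02 CPM. The groups overlapped, and the log2 fold changes were 0.01, 0.04 and -0.05 with adjusted p-values of 0.953, 0.662 and 0.649. GCLM, whose UTR holds the miR-21-5p match shown above, was measured at 60.2, 63.7 and 58.8 CPM in control. It was measured at 66.2, 66.4 and 71.1 CPM in PNA-10b, at 64.3, 70.1 and 71.3 CPM in PNA-21 and at 68.3, 71.5 and 64.4 CPM in PNA-10b+21. Each treated library lay above the 3 control libraries, also in the group that received no sgPNA-21. On the log2 scale GCLM rose by 0.17 ± 0.06 (SE) in PNA-21 (adjusted p = 0.0332), while the values of 0.15 ± 0.06 in PNA-10b (adjusted p = 0.127) and 0.16 ± 0.06 in PNA-10b+21 (adjusted p = 0.0510) did not pass. The difference between PNA-21 and PNA-10b was 0.01 (95% interval -0.11 to 0.13). The call in PNA-21 was lost without control replicate 1 (adjusted p = 0.0993), control replicate 3 (0.125), PNA-21 replicate 2 (0.0990) or PNA-21 replicate 3 (0.137).

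TXNRD1 (chr12:104215779-104350305, plus strand), the reductase that recycles cytosolic thioredoxin with NADPH, was measured at 327, 317 and 339 CPM in control. The PNA-10b libraries held 376, 384 and 338 CPM, the PNA-21 libraries 374, 385 and 384 CPM, and the PNA-10b+21 libraries 401, 400 and 374 CPM. Both groups given sgPNA-21 lay wholly above control, and 1 PNA-10b library overlapped it. TXNRD1 rose by 0.22 ± 0.05 (SE) on the log2 scale in PNA-21 (adjusted p = 0.00370) and by 0.26 ± 0.05 in PNA-10b+21 (adjusted p = 0.00104). For PNA-10b, 0.16 ± 0.05 did not pass (adjusted p = 0.0769); it passed with DESeq2 (adjusted p = 0.0323), with total counts alone (0.0279), with no filter on low counts (0.0347) and without PNA-10b replicate 3 (0.0208). SRXN1 (chr20:646615-653370, minus strand), which restores oxidised peroxiredoxins, had 2, 3 and 1 counts in control, 1, 2 and 3 in PNA-10b, 2, 2 and 3 in PNA-21 and 4, 5 and 4 in PNA-10b+21. With so few counts no fold or test is given. In GENCODE release 29, 85.0% of its exon bases lie in exons of another gene on the same strand, AL121758.1, which had 0 to 2 counts per library. How reads shared by both genes were counted was not tested.

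OSGIN1 (chr16:83948282-83966332, plus strand), an oxidative stress response gene linked to growth arrest and cell death, had the smallest adjusted p of the set after sgPNA-21 alone. The control libraries held 17.0, 17.0 and 14.8 CPM, and those of PNA-10b 17.3, 20.6 and 18.3 CPM. The PNA-21 libraries held 23.4, 24.3 and 22.4 CPM, and the PNA-10b+21 libraries 24.9, 22.9 and 21.4 CPM. The 6 libraries given sgPNA-21 all lay above the 6 others. OSGIN1 rose by 0.52 ± 0.09 (SE) on the log2 scale in PNA-21 (adjusted p = 0.000151) and by 0.50 ± 0.09 in PNA-10b+21 (adjusted p = 0.000215), while 0.20 ± 0.09 in PNA-10b did not pass (adjusted p = 0.198).

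FTL (chr19:48965301-48966878, plus strand), the ferritin light chain, which helps form the iron core, had the highest level per exon length of the set (given below). It was measured at 1337, 1140 and 1268 CPM in control and at 1354, 1244 and 1249 CPM in PNA-10b, which overlapped. The PNA-21 libraries held 1447, 1480 and 1467 CPM and the PNA-10b+21 libraries 1545, 1660 and 1514 CPM. All 6 libraries given sgPNA-21 lay above the 6 others, and those of the combined group above those of PNA-21. FTL rose by 0.23 ± 0.06 (SE) on the log2 scale in PNA-21 (adjusted p = 0.00522) and by 0.33 ± 0.06 in PNA-10b+21 (adjusted p = 0.000234). In PNA-10b the value was 0.04 ± 0.06 (adjusted p = 0.778). Between PNA-10b+21 and PNA-21 the difference of 0.10 ± 0.06 did not pass (adjusted p = 0.658). The 4 FTL pseudogenes in the table together held 0.84% to 1.01% of the count of FTL.

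FTH1 (chr11:61959718-61967660, minus strand), the heavy chain, carries the ferroxidase centre that oxidises iron for storage. It was measured at 232, 242 and 232 CPM in control, and at 204, 260 and 291 CPM in PNA-10b, the widest spread of any group for this gene. The PNA-21 libraries held 257, 289 and 278 CPM and the PNA-10b+21 libraries 310, 316 and 284 CPM. Both groups given sgPNA-21 lay above control, while PNA-10b lay on both sides of it. FTH1 rose by 0.36 ± 0.08 (SE) on the log2 scale in PNA-10b+21 (adjusted p = 0.00253). The value of 0.22 ± 0.08 in PNA-21 narrowly missed (adjusted p = 0.0515), and it passed when only control and PNA-21 were fitted (adjusted p = 0.00647) or without PNA-10b replicate 1 (0.00608). In PNA-10b the value was 0.10 ± 0.08 (adjusted p = 0.564), and 0.23 without PNA-10b replicate 1 (adjusted p = 0.0399).

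The FTH1 count is uncertain because near-identical copies can share its reads. The 19 FTH1 pseudogenes in the table together held 43.4% to 66.8% of the count of FTH1. The highest share was in PNA-10b replicate 1, where FTH1 was lowest, and a low FTH1 count raises this share by itself. The copies summed to 1885 raw counts there, within the 1644 to 2616 of the 12 libraries. The 3 with most counts were FTH1P20, FTH1P2 and FTH1P8. In PNA-10b+21 they differed from control by 0.19, 0.09 and 0.24 on the log2 scale, and FTH1P8 passed (adjusted p = 0.0446). Of the exon bases of FTH1, 62.4% also lie in exons of BEST1 on the opposite strand, which had 113 to 192 counts per library. The part of the copies and of BEST1 in the FTH1 values was not tested.

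**Figure D2:**
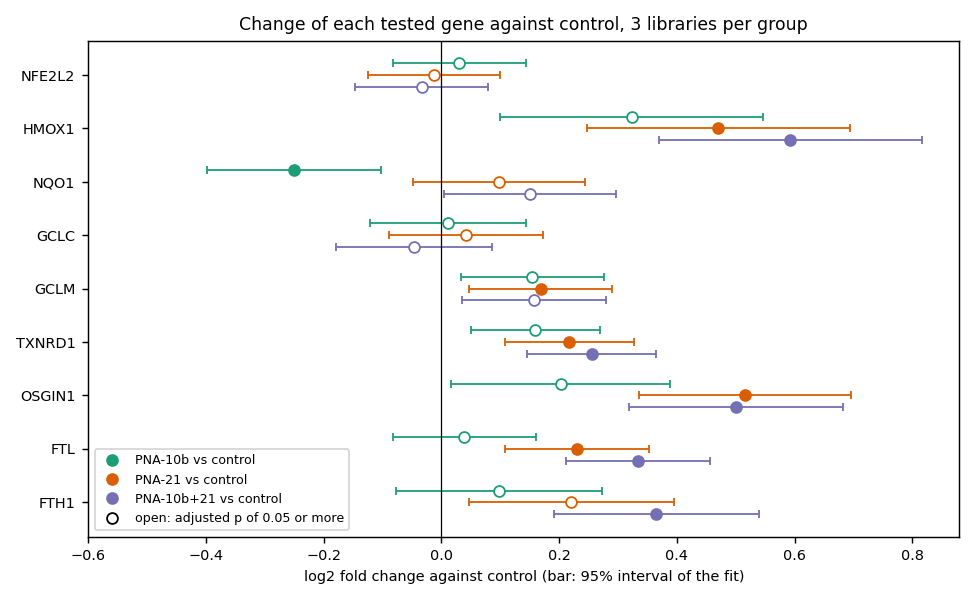
Log2 fold change of the 9 tested genes against control in the 3 treated groups, with 95% intervals of the fit, and open points where the adjusted p was 0.05 or more. HMOX1 reaches 0.59 and OSGIN1 0.52, NQO1 in PNA-10b is the only filled point below 0, and NFE2L2 and GCLC stay near 0.

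The 9 tested genes can be set beside all 15715. The set was chosen with earlier results of these data known, so the shares only describe it. Against control, 5 of 9 rose in PNA-21 and 0 fell, where 15.2% of all genes rose and 14.6% fell; the median log2 change of the 9 was 0.22 and of all genes -0.01. In PNA-10b+21, 5 of 9 rose and 0 fell, where 13.6% of all genes rose and 13.4% fell, with medians of 0.26 and -0.00. In PNA-10b, 0 of 9 rose and 1 fell, where 2.75% of all genes rose and 3.74% fell, with medians of 0.10 and -0.00. Beside that 0, DESeq2 called 1 of the 9 higher in PNA-10b, TXNRD1, where it called 406 of the 12870 genes it adjusted higher. An unadjusted edgeR p under 0.05 was found for 5 of the 9, with 4 of them higher and NQO1 lower. Over all 15715 genes, 3235 had such a p in PNA-10b. When libraries were scaled by total counts alone, calls over all genes shifted upward: 3222 rose and 1733 fell in PNA-21, against 2388 and 2296 with TMM scaling, 2901 and 1667 against 2131 and 2112 in PNA-10b+21, and 534 and 452 against 432 and 587 in PNA-10b.

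The second question is how the treated groups differ from each other. NQO1 was higher with sgPNA-21 than with sgPNA-10b by 0.35 ± 0.07 (SE) on the log2 scale (adjusted p = 0.00424). OSGIN1 was higher by 0.31 ± 0.08 (adjusted p = 0.0283). These were the 2 of 9 that passed, both in the same direction, where 6.79% of all genes passed in either direction. FTL was higher by 0.19 ± 0.06 with no overlap of libraries but did not pass (adjusted p = 0.0523). HMOX1 differed by 0.15 (95% interval -0.07 to 0.37) and TXNRD1 by 0.06 (-0.05 to 0.17), and neither passed. The OSGIN1 difference was lost without PNA-10b replicate 1 (adjusted p = 0.126) or 3 (0.0934), or without PNA-21 replicate 1 (0.0820) or 2 (0.0888).

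With sgPNA-21 added to sgPNA-10b, which also raised the total dose, 4 of 9 were higher, where 9.7% of all genes passed in either direction. NQO1 rose by 0.40 ± 0.07 (SE) on the log2 scale (adjusted p = 0.000900), OSGIN1 by 0.30 ± 0.08 (adjusted p = 0.0290), FTL by 0.29 ± 0.06 (adjusted p = 0.00276) and FTH1 by 0.27 ± 0.08 (adjusted p = 0.0465). HMOX1 had a value of 0.27 ± 0.11 and did not pass (adjusted p = 0.117), and PNA-10b+21 replicate 3 lay below all 3 PNA-10b libraries. The FTH1 libraries of the 2 groups overlapped. Without PNA-10b replicate 1 the FTH1 difference was 0.14 (adjusted p = 0.201), and it passed in 7 of 19 alternatives. OSGIN1 was lost without PNA-10b replicate 1 (adjusted p = 0.106) or 3 (0.108), or PNA-10b+21 replicate 1 (0.202) or 2 (0.0727).

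Adding sgPNA-10b to sgPNA-21 gave no call by edgeR among the 9 genes, where 0% of all genes passed. None of the 9 had an unadjusted p under 0.05, and DESeq2 called 0 of them. Over all genes 1354 had an unadjusted p under 0.05, and DESeq2 called 27. The 95% intervals on the log2 scale ran from -0.02 to 0.22 for FTL, -0.10 to 0.34 for HMOX1 and -0.09 to 0.20 for NQO1.

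The interaction measures whether sgPNA-10b and sgPNA-21 together departed from the sum of their log2 changes. It takes the step from sgPNA-10b alone to both agents and subtracts the step from untreated cells to sgPNA-21. With no group given empty nanoparticles, any effect of the particle is part of both single changes. A departure therefore cannot be told apart from such an effect. None of the 9 genes passed, where 3.12% of all genes did, and DESeq2 also called 0. Of the 9, NQO1 alone had an unadjusted edgeR p under 0.05, as had 2933 of all 15715 genes. NQO1 had an interaction of 0.30 ± 0.10 (SE) on the log2 scale (adjusted p = 0.0953): it was low with sgPNA-10b alone, and with both agents it was at 221 ± 15.2 CPM (SD, n = 3) beside 213 ± 22.9 CPM with sgPNA-21 alone. Without control replicate 2 this interaction was 0.36 and passed (adjusted p = 0.0339), as it did with no filter on low counts (0.28, adjusted p = 0.0146). GCLM had -0.17 ± 0.08 (adjusted p = 0.285) and OSGIN1 -0.22 ± 0.12 (adjusted p = 0.355).

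Levels can be compared between genes only per length, here as CPM per kilobase of the merged exons of all annotated transcripts. This length was 8646 bases for GCLC and 5979 for NFE2L2. It can exceed that of the transcripts present, which would lower a gene's place. The SDs do not cover this, and its part in the order was not tested. The places of FTH1 and SRXN1 are less certain still, since copies or overlapping genes can share their reads, which was not tested. In control, FTL stood at 1421 ± 114 (SD, n = 3), an order above the next genes, HMOX1 at 121 ± 5.52 and FTH1 at 116 ± 2.72, which did not differ beyond their spread. NQO1 at 61.3 ± 4.35, TXNRD1 at 48.9 ± 1.65, NFE2L2 at 24.0 ± 1.28 and GCLM at 11.2 ± 0.462 followed. Each was apart from its neighbours by the spread between libraries alone. GCLC at 4.84 ± 0.351 and OSGIN1 at 4.70 ± 0.371 did not differ beyond their spread, and SRXN1 was last at 0.0484 ± 0.0178. In PNA-10b, TXNRD1 at 54.6 ± 3.64 stood before NQO1 at 51.5 ± 2.17, within their spread. OSGIN1 stood before GCLC in the treated groups, at 5.41 ± 0.493 against 4.89 ± 0.174 in PNA-10b, within their spread, at 6.76 ± 0.278 against 5.00 ± 0.267 in PNA-21 and at 6.67 ± 0.511 against 4.70 ± 0.118 in PNA-10b+21.

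The genes most like HMOX1 and FTL across the 12 libraries were found by the root mean square difference of their log2 CPM, each centred on its own mean, among 12548 genes. For HMOX1 these were SLC6A17 at 0.108, PKN3 at 0.123 and IL13RA2 at 0.123, where the median gene stood at 0.285. For FTL they were VAT1 at 0.0447, UQCRFS1 at 0.0496 and NOP10 at 0.0525, where the median gene stood at 0.187. These are descriptions over libraries that share a cell line and a sequencing design.

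Of 121 other genes of the same pathways, also listed with earlier results of these data known, 109 were tested. In PNA-21, 26 of them (23.9%) rose and 19 (17.4%) fell, where 15.2% of all genes rose and 14.6% fell, and their median log2 change was 0.04. In PNA-10b+21, 23 (21.1%) rose and 18 (16.5%) fell, beside 13.6% and 13.4% of all genes, with a median of 0.04. In PNA-10b, 5 (4.59%) rose and 8 (7.34%) fell, beside 2.75% and 3.74% of all genes, with a median of -0.03. With total counts alone the split was 35 higher and 15 lower in PNA-21, 33 and 15 in PNA-10b+21, and 6 and 6 in PNA-10b. The shares of each list below are to be read against these shares of all genes. The named genes of each list are those with the smallest p-values against control.

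**Figure D3:**
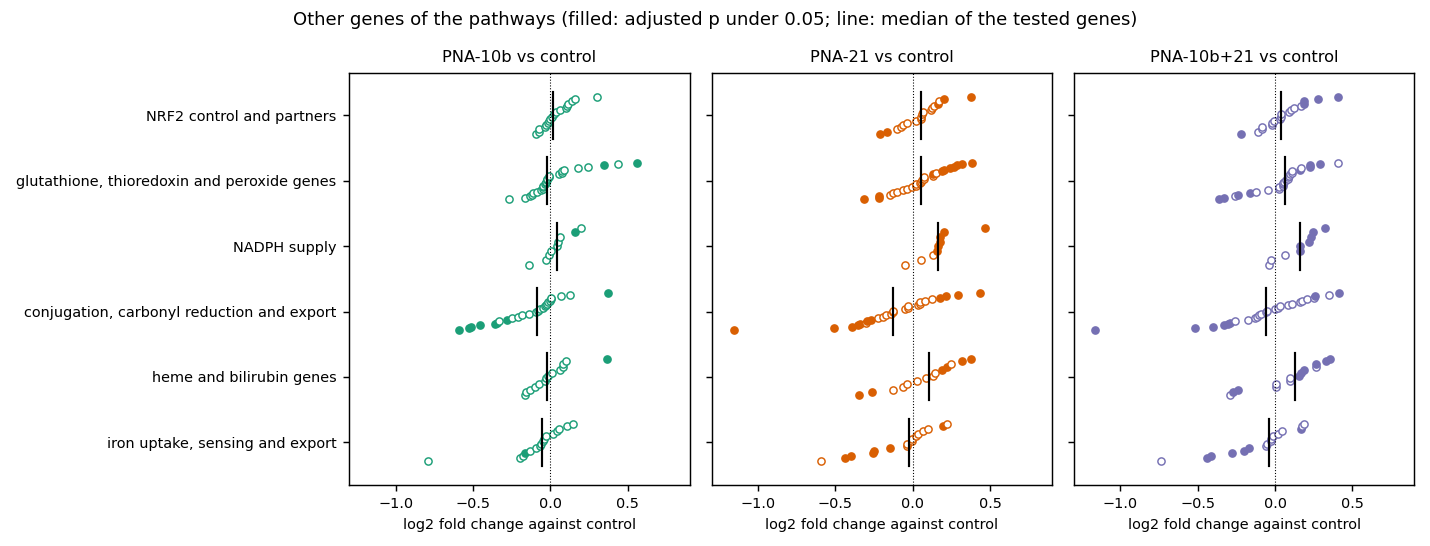
Log2 fold change against control of the 109 other pathway genes in 6 lists, for PNA-10b, PNA-21 and PNA-10b+21. Each point is a gene, filled where the adjusted p was under 0.05, and the line is the list's median. The NADPH supply genes have a median of 0.16 in both groups given sgPNA-21, and the conjugation list of -0.13 in PNA-21.

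Of 18 genes that control or partner NRF2, 0 passed in PNA-10b with edgeR or with DESeq2. There 1 had an unadjusted edgeR p under 0.05, as had 3235 of all 15715 genes. In PNA-21, 3 (16.7%) rose and 2 (11.1%) fell, and in PNA-10b+21, 4 (22.2%) rose and 1 (5.56%) fell. In PNA-21 both shares are near those of all genes, 15.2% and 14.6%. The median log2 changes were 0.06 and 0.04. SQSTM1, the autophagy adaptor that binds KEAP1 and is itself an NRF2 target, rose by 0.17 ± 0.05 (SE) on the log2 scale in PNA-21 (adjusted p = 0.0130) and by 0.28 ± 0.05 in PNA-10b+21 (adjusted p = 0.000239). PGAM5, a mitochondrial phosphatase that binds KEAP1, rose by 0.38 and 0.41, and MAFG, a small MAF partner, by 0.20 and 0.19. NFE2L1, the related factor NRF1, fell by 0.21 and 0.22 in the same groups.

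Of 26 tested genes of cystine import, glutathione, thioredoxin and peroxide removal, 2 rose in PNA-10b, 8 (30.8%) rose and 3 (11.5%) fell in PNA-21, and 4 (15.4%) rose and 4 (15.4%) fell in PNA-10b+21, where the shares of all genes were 13.6% and 13.4%. SLC7A11, the cystine carrier and a known target of both NRF2 and ATF4, was measured at 34.7, 40.0 and 29.8 CPM in control. It was at 44.1, 57.9 and 52.4 CPM in PNA-10b, at 40.8, 52.8 and 44.0 CPM in PNA-21, and at 37.8, 34.4 and 39.1 CPM in PNA-10b+21. It lay above control with either agent alone and overlapped control with both. On the log2 scale SLC7A11 rose by 0.56 ± 0.11 (SE) in PNA-10b (adjusted p = 0.00273) and by 0.38 ± 0.11 in PNA-21 (adjusted p = 0.00930), while PNA-10b+21 had 0.08 ± 0.11 (adjusted p = 0.622). It was lower in PNA-10b+21 than in PNA-10b by 0.47 (adjusted p = 0.00592). SLC3A2, its partner chain, rose in all 3 treated groups, by 0.35, 0.24 and 0.22. GSR, glutathione reductase, rose by 0.27 in PNA-21 and 0.29 in PNA-10b+21, while PRDX4, a peroxiredoxin of the endoplasmic reticulum, fell by 0.32 and 0.33.

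NADPH feeds both the glutathione and the thioredoxin reductases. Of 9 tested genes of NADPH supply, 6 (66.7%) rose and 0 fell in PNA-21 and also in PNA-10b+21, with a median log2 change of 0.16 in each, and 1 rose in PNA-10b. NNT, the mitochondrial transhydrogenase, rose by 0.20 and 0.23 in the groups given sgPNA-21, and PGD, of the oxidative pentose phosphate pathway, by 0.18 and 0.24. TKT and RPIA, of its non-oxidative branch, rose by 0.16 and 0.22, and by 0.47 and 0.33.

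Of 26 tested genes of conjugation, carbonyl reduction and export, 1 (3.85%) rose and 7 (26.9%) fell in PNA-10b, 4 (15.4%) rose and 7 (26.9%) fell in PNA-21, and 2 (7.69%) rose and 6 (23.1%) fell in PNA-10b+21. The share that rose in PNA-21 is near the 15.2% of all genes, and that in PNA-10b+21 is below their 13.6%. The median log2 changes were -0.09, -0.13 and -0.06. ABCC3, an exporter of conjugates, was measured at 88.3, 77.4 and 92.2 CPM in control, at 62.2, 52.9 and 56.1 CPM in PNA-10b, at 37.7, 38.7 and 39.1 CPM in PNA-21 and at 33.6, 38.8 and 42.4 CPM in PNA-10b+21. The 3 treated groups lay below control without overlap, and those with sgPNA-21 below PNA-10b. ABCC3 fell by 0.59, 1.16 and 1.17 on the log2 scale in PNA-10b, PNA-21 and PNA-10b+21 (adjusted p = 9.97e-05, 4.64e-09 and 3.55e-09). AKR1C1, an aldo-keto reductase and a known NRF2 target, was lowest in PNA-10b, as NQO1 was. It was measured at 170, 145 and 183 CPM in control, 122, 103 and 122 CPM in PNA-10b, 154, 128 and 170 CPM in PNA-21 and 145, 164 and 153 CPM in PNA-10b+21. AKR1C1 fell by 0.51 ± 0.09 in PNA-10b (adjusted p = 0.00172), and its values of -0.13 and -0.11 in PNA-21 and PNA-10b+21 did not pass. It was higher in PNA-21 than in PNA-10b by 0.38 (adjusted p = 0.0134). AKR1C1 has close copies in AKR1C2 and AKR1C3, so its reads may be split among them. In PNA-10b, PNA-21 and PNA-10b+21, AKR1C2 had -0.36, -0.14 and -0.09 and passed in PNA-10b only (adjusted p = 0.0257). AKR1C3 had -0.52, -0.51 and -0.52 and passed in all 3 (adjusted p = 0.0107, 0.00271 and 0.00258). Both copies are named after their values were seen. AKR1B1, aldose reductase, fell in all 3 groups, by 0.46, 0.35 and 0.33, and MGST1, a membrane glutathione transferase, rose by 0.43 in PNA-21 and 0.41 in PNA-10b+21.

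**Figure D4:**
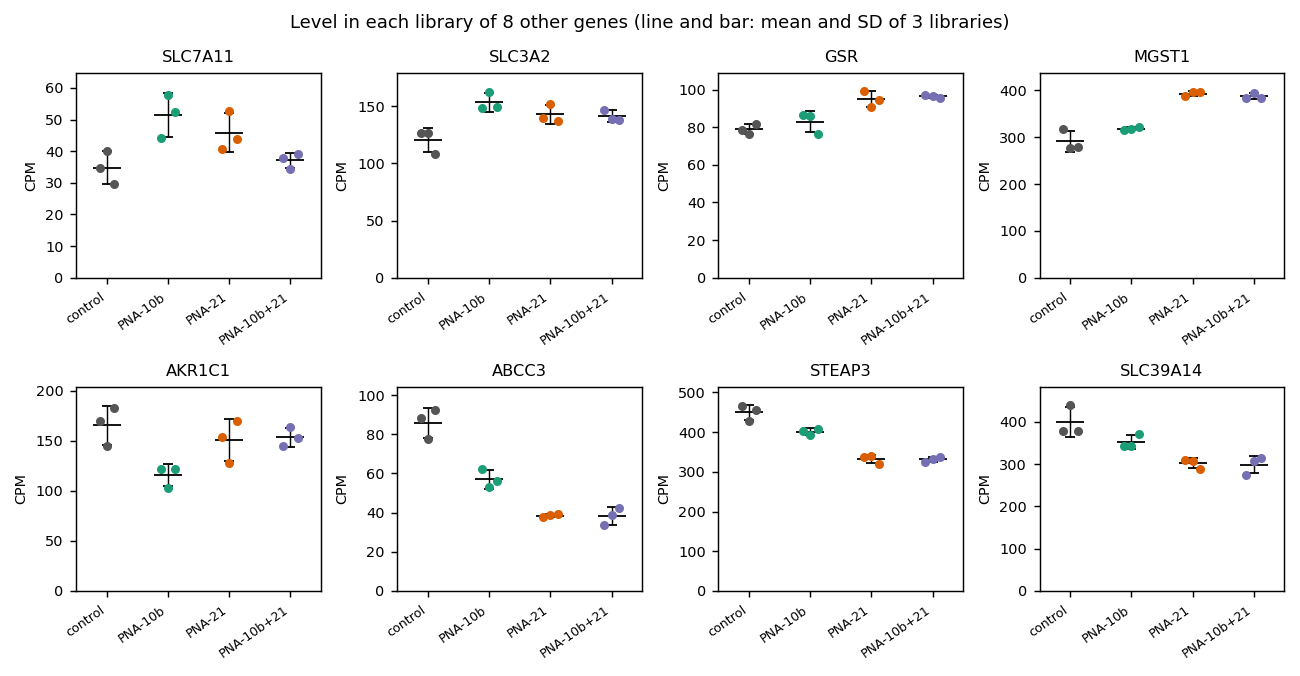
Level of 8 other genes in the 12 libraries, in CPM from 0, by group, with points for libraries and the line and bar for the mean and SD of 3. SLC7A11 is above control with either agent alone and overlaps it with both, AKR1C1 is low in PNA-10b, and ABCC3, STEAP3 and SLC39A14 lie below control in all 3 treated groups.

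Of 14 tested genes of heme synthesis, transport and breakdown, 1 rose in PNA-10b, 4 (28.6%) rose and 2 (14.3%) fell in PNA-21, and 6 (42.9%) rose and 2 (14.3%) fell in PNA-10b+21. The shares that fell are near those of all genes, 14.6% and 13.4%. POR, the reductase that gives electrons to heme oxygenase and to cytochromes P450, rose by 0.22 and 0.33 on the log2 scale in the groups given sgPNA-21. ALAD, an enzyme of heme synthesis, fell by 0.26 and 0.27 in the same groups. FLVCR1, known as a heme exporter, rose by 0.37 in PNA-10b and 0.38 in PNA-21, and had 0.27 in PNA-10b+21 (adjusted p = 0.0514).

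Of 16 tested genes of iron uptake, sensing and export, 0 rose and 1 fell in PNA-10b, and 1 (6.25%) rose and 5 (31.2%) fell in each of PNA-21 and PNA-10b+21. The median log2 changes were -0.05, -0.02 and -0.04. STEAP3, the endosomal reductase that readies iron from transferrin for transport, was measured at 465, 428 and 456 CPM in control, 403, 391 and 409 CPM in PNA-10b, 337, 340 and 320 CPM in PNA-21 and 325, 332 and 338 CPM in PNA-10b+21. Its groups did not overlap, except those given sgPNA-21 with each other. STEAP3 fell by 0.16, 0.44 and 0.44 on the log2 scale in the 3 treated groups (adjusted p = 0.0401, 1.21e-06 and 9.84e-07). SLC39A14, an importer of iron and zinc, fell by 0.40 in PNA-21 and 0.42 in PNA-10b+21, and SLC25A37, the mitochondrial iron importer, by 0.26 and 0.28. SLC11A2, the carrier that moves iron out of endosomes, was the 1 that rose in each, by 0.19 and 0.17. TFRC, the transferrin receptor, fell by 0.15 in PNA-21 (adjusted p = 0.0226) and by 0.17 in PNA-10b+21 (adjusted p = 0.0104). It is named after its values were seen. Iron in the cells was not measured here.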

How the data were processed

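RNA of U87 cells was extracted as total RNA and sequenced from stranded mRNA libraries (12 libraries, 4 groups of 3), per the labels' protocols. The values the authors deposited are raw counts per gene, whole numbers in 1 table that carry no scaling. The submitters' processing notes name the build hg38 and the tools HTSeq 0.11.0, HISAT2 2.1.0 and SAMtools 1.7. Strand setting and annotation release: not given in the sources used here. All 12 columns matched a library by title. Genes were filtered with filterByExpr (edgeR 4.0.16, R 4.3.3) at a minimum count of 10, which kept 15715 of 35741 genes and 99.8% of counts, and scaled with TMM factors. A single quasi-likelihood model (glmQLFit) over the 12 libraries, with 1 coefficient for each group, served 7 comparisons, each adjusted over all tested genes. CPM values use the same factors. The test was tried on simulated data. Precision is limited by 3 libraries a group.

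The 10 genes and the lists were chosen with earlier results of these data known. All 10 were named; of each list up to 4 with the smallest p against control were named, the 3 genes most like HMOX1 and FTL (mean log2 CPM of at least 1), and the 3 ferritin pseudogenes with most counts. Some genes the rule names are not reported here. Coordinates and exon lengths are from GENCODE release 29. Replicate numbers gave no clear pairing of the libraries. Alternatives were DESeq2 1.42.0, other filters, scalings and fits, and leaving out each library.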

Additional observations from a re-analysis of the deposited data

How the results depend on the processing

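Of 17 changes of the 10 genes that passed the test, 12 kept their call and direction in all 19 alternatives, and the 5 that were lost in at least 1 (NQO1 in PNA-10b, GCLM in PNA-21, OSGIN1 and FTH1 against PNA-10b) kept their direction. The causes of the shifts below were not tested. Against control in PNA-10b, 2 of the genes rose with no filter on low counts, and 1 each with total counts alone, with DESeq2 and with only the groups compared; with total counts alone 0 fell. For PNA-10b+21 against PNA-21, the count of genes called was 332 with no filter, 27 with DESeq2 and 48 with only the groups compared. With no filter the interaction gave 1074 genes and 1 of the set. Signs turned for NFE2L2 in PNA-21 with no filter (0.0028) and total counts alone (0.039), for NFE2L2 in PNA-10b+21 with total counts alone (0.012), and for GCLM in PNA-10b+21 against PNA-10b with no filter (-0.0021) and a minimum count of 50 (-0.0067).

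Leaving out each library in turn gave 306 to 1252 genes in PNA-10b against control, 0 to 1 of the set higher and 0 to 1 lower, and 2 to 5 other pathway genes higher and 3 to 10 lower, with the fewest without PNA-10b replicate 2. In PNA-21 17 to 26 pathway genes rose, the fewest without control replicate 2. In PNA-10b+21 the ranges were 2748 to 4293 genes and 13 to 22 pathway genes higher, the fewest without PNA-10b+21 replicate 1. Against PNA-10b they were 545 to 1166 genes and 1 to 3 of the set in PNA-21, and 532 to 1687 genes and 2 to 5 of the set in PNA-10b+21. The interaction gave 92 genes without PNA-10b replicate 2 to 1028 without control replicate 2, and 0 to 1 of the set. Values near 0 crossed it. In PNA-10b against control, NFE2L2 ran from -0.014 to 0.056, GCLC from -0.033 to 0.070, FTL from -0.022 to 0.093 and FTH1 from -0.018 to 0.23. In PNA-21, NFE2L2 ran from -0.062 to 0.015 and GCLC from -0.0069 to 0.096; in PNA-10b+21, GCLC from -0.093 to 0.0098. PNA-21 against PNA-10b gave -0.0092 to 0.058 for GCLC, -0.021 to 0.059 for GCLM, -0.00095 to 0.095 for TXNRD1 and -0.0053 to 0.24 for FTH1. PNA-10b+21 against PNA-10b gave -0.031 to 0.037 for GCLM. PNA-10b+21 against PNA-21 gave -0.072 to 0.011 for NFE2L2, -0.033 to 0.099 for NQO1, -0.055 to 0.027 for GCLM and -0.077 to 0.037 for OSGIN1, and the FTH1 interaction ran from -0.082 to 0.16.

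The replicate numbers shared by the groups gave no clear pairing of the libraries, though a weak one cannot be told from none. Of same-numbered pairs 1 of 18 had a correlation over 0.1, with a median of 0.0231. Of pairs with different numbers 1 of 36 did, with a median of -0.0103. Their own number gave the best correlation for 6 of 12 libraries. With the replicate number as a block, the genes called against control were 1271, 4851 and 4407 in PNA-10b, PNA-21 and PNA-10b+21. Without it they were 1019, 4684 and 4243. With the block 6 of the set rose in each of the latter 2 groups, with FTH1 in PNA-21 (adjusted p = 0.0386) and GCLM in PNA-10b+21 (adjusted p = 0.0437) added. Limits: 3 libraries a group, no group with empty nanoparticles, SRXN1 too low to test, and FTH1 copies that can share its reads, which was not tested.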
